A study of Mus musculus with 7 samples.

Results

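The genes described are 10 chosen by name: the SLAM family receptors Slamf1, Slamf6, Ly9, Cd48 and Cd84, their adaptor Sh2d1a, and the follicular helper and CD4 T cell genes Bcl6, Cxcr5, Izumo1r and Tnfsf8. All 10 were found among the 55364 genes of the count table by matching the gene name and summing the counted 3′ regions of each gene. The libraries came from CD45+CD3+CD4+ cells sorted out of lung tumours that had been placed in the lung of C57BL/6 mice more than 8 weeks of age. All mice were homozygous for a loxP-flanked I-Ab allele (I-AbF/F), which encodes a chain of MHC class II, and all received tamoxifen. The 5 Control libraries came from I-AbF/F mice without Cre. The 2 Cre libraries came from I-AbF/FCol1a2-cre mice, in which the Col1a2 promoter, active in fibroblasts, drives the recombinase, so that the sorted T cells were not the cells aimed at. The comparison asks whether these genes differ in tumour CD4 T cells when fibroblasts lack MHC class II. The design text calls the libraries biological replicates and does not say how many mice each one holds, and p-values measure the spread between these libraries. Because the allele is deleted in fibroblasts, its counts in sorted T cells do not check the labels.

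SLAM receptors are immunoglobulin-like surface proteins of blood cells. Most of them bind the same receptor on a neighbouring cell, and their tails carry tyrosines to which the adaptor SAP, the product of Sh2d1a, attaches and brings in the kinase Fyn. In mice and people SAP is needed for lasting contact between T cells and B cells and so for germinal centres. Bcl6 is the transcriptional repressor that establishes follicular helper T cells, and Cxcr5 is the chemokine receptor that leads them towards CXCL13 in B cell follicles. Izumo1r encodes folate receptor 4, a marker of regulatory and anergic CD4 T cells in mice, and Tnfsf8 encodes CD30 ligand, a TNF family member of activated T cells.

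Libraries held 1449739 to 1929899 counts, and a count of 0 in 1 library allows up to 3 counts, or 1.55 to 2.07 CPM (counts scaled to a library total of 1000000). Limits of this kind cover counting error only. Of the 9854 genes tested, 25.01% and 33.6% had no count in the Cre libraries, against 1.14% to 16.1% in Control. A gene could pass the filter on low counts through Control libraries alone, and Control has more libraries than Cre. How much of this excess, and of the shares over all tested genes below, comes from that was not tested. The summed level of 10 CD4 T cell markers was 5069 to 6340 CPM in Control libraries, 6349 CPM in Cre replicate 1 and 4953 CPM in Cre replicate 2, although Cd3e had 3 counts in Cre replicate 2. B cells also express several of the genes described here. Of 9 B cell markers, 5, among them Ms4a1 and Pax5, had no count in any library, and all 9 together summed to at most 7.12 CPM in any library. In bulk libraries fewer cells of a type and less RNA per cell cannot be told apart.

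The 5 SLAM receptor genes lie together on mouse chromosome 1, within 364.5 kb from 171588624 to 171953170 (mm10). From Cd244a, the next receptor of the family, to Slamf6 there are 8 protein-coding genes, of which the other 3 (Cd244a, Slamf7 and Gm10521) had 7, 24 and 0 counts over all 7 libraries. The receptors also share a coding feature, shown here because it is where SAP attaches. Its codons run ACN, any codon, TAT or TAC, any pair of codons, and GTN, ATT, ATC or ATA, which is the tyrosine switch motif. Read in frame on the coding strand of the longest coding sequence of each gene (GENCODE M21, GRCm38), it occurred 2 times within the last 100 codons of Slamf1, Slamf6, Ly9 and Cd84. Only 10 of 21515 genes with a complete coding sequence (0.0465%) had 2 or more there, and 7.95% had it at least once anywhere. Cd48, whose protein is held by a lipid anchor and has no tail, had none in those codons, and neither had the 5 other genes described. The motif is not particular to the described receptors, as Cd244a had 3 and Slamf7 had 1 in those codons. The 18 bases of each motif in the described genes are given 5′ to 3′ with the tyrosine codon in capitals.
Slamf1, chr1:171792339-171792356, plus strand: actattTATgcccaagta
Slamf1, chr1:171799588-171799605, plus strand: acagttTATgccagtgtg
Slamf6, chr1:171939437-171939454, plus strand: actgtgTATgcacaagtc
Slamf6, chr1:171941664-171941681, plus strand: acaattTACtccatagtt
Ly9, chr1:171593912-171593929, minus strand: actccaTATgataaagtg
Ly9, chr1:171593438-171593455, minus strand: acaatcTACtgctctgtg
Cd84, chr1:171884605-171884622, plus strand: acagtaTATgctgtagtt
Cd84, chr1:171885601-171885618, plus strand: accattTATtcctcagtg

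**Figure D1:**
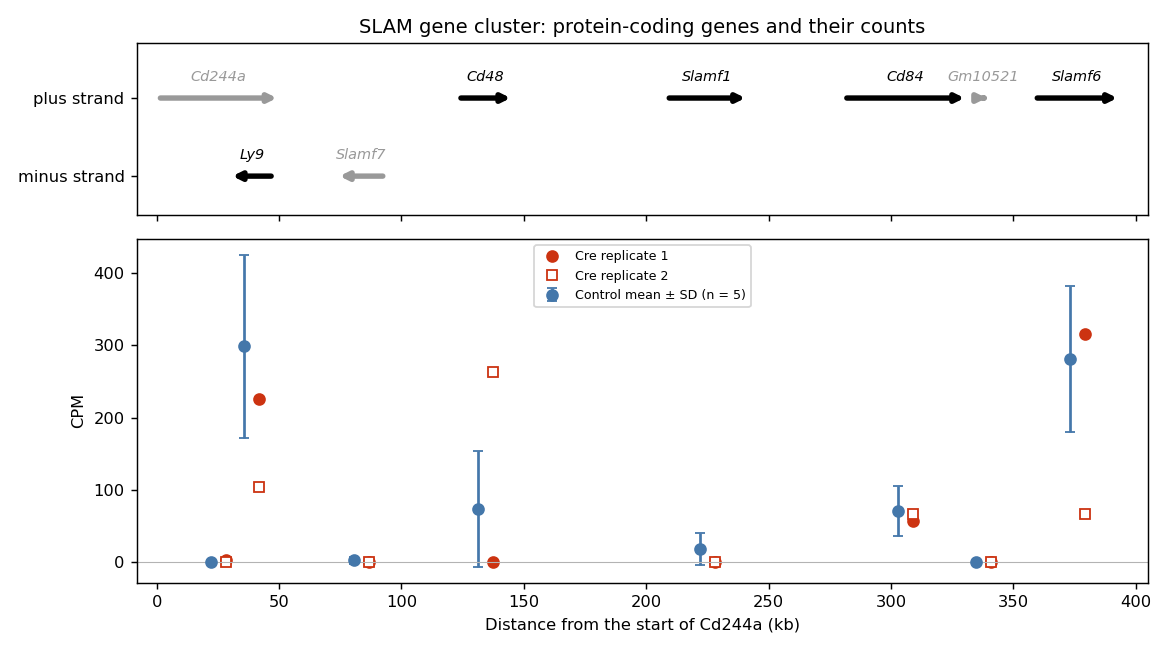
Upper panel: protein-coding genes from Cd244a to Slamf6 by distance from the start of Cd244a (kb), as arrows in the direction of transcription, with the described receptors in black. Lower panel: CPM of each gene, as the Control mean ± SD (n = 5) and the 2 Cre libraries. The Cre libraries stand at 0.518 and 263 CPM for Cd48, on either side of the Control mean of 74.0 CPM.

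No gene described here passed the threshold for a difference between Cre and Control in the main test, by edgeR. Of the 10, 9 passed the filter on low counts and were tested, and 0 were called higher or lower by edgeR's quasi-likelihood test (adjusted p = 0.367 to 0.963), where 0.0% of all 9854 genes were called higher and 0.0101% lower. With no adjustment, Slamf1 and Tnfsf8 had an edgeR p under 0.05, both lower in Cre, and 0 were higher, where 10.2% of all genes were lower and 1.41% higher. Slamf1, Tnfsf8 and Bcl6, with no more than 6 counts in a Cre library, passed the filter through Control libraries alone. A gene that passes in this way can only come out lower in Cre, so the direction of these genes is not a separate result. DESeq2 called 1 of the 9, Tnfsf8, where it called 7.23% of 8394 genes lower and 0.417% higher, and limma voom called 0 of the 9, where it called 0.0304% of all genes higher and 0.0% lower. Fitted values were lower in Cre for 7 of the 9 and higher for 2, as for 60.1% and 39.9% of all genes, with a median log2 fold change (Cre minus Control) of −0.52 beside −0.39 over all tested genes, and the same with Slamf1 at its bound. The median over all genes shifted by −0.10 when scaled by upper-quartile factors and by 0.10 when scaled by DESeq2 size factors. Added up, the 10 genes made 885, 1502, 1084, 1262 and 857 CPM of the Control libraries, 906 CPM of Cre replicate 1 and 739 CPM of Cre replicate 2, so that Cre replicate 1 lay within the Control range and Cre replicate 2 below it.

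**Figure D2:**
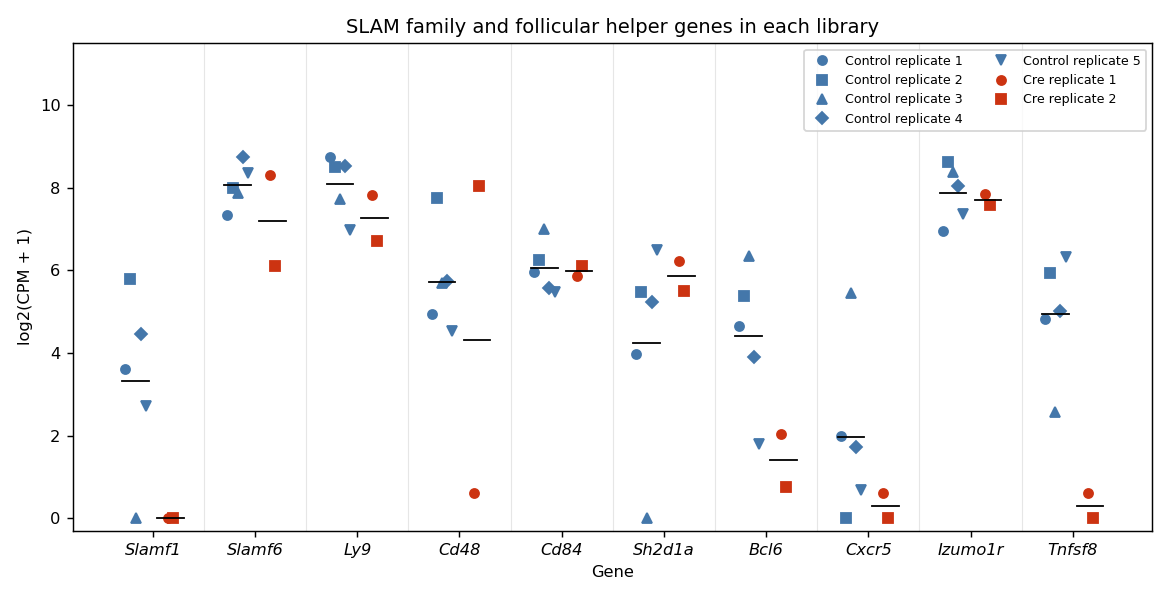
Level of each gene in each library as log2(CPM + 1), with Control in blue, Cre in red, 1 marker shape per replicate and a line at the mean of the plotted values. The 2 Cre libraries lie below all Control libraries for Tnfsf8, and the groups overlap or tie for the other 9 genes.

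Slamf1, the founding receptor of the family, was counted 19, 81, 0, 36 and 9 times in Control and not at all in Cre. Control replicate 3 was also at 0, so the groups tie there. The Control mean was 18.4 ± 21.6 CPM (SD, n = 5), and 0 counts over both Cre libraries allow up to 3 counts or 0.888 CPM. That counting limit was 20.8-fold below the Control mean, and 10.6-fold below it without Control replicate 2. These folds cover counting error in Cre only and not the spread between Control libraries, so they do not bound the difference between the groups. edgeR gave an unadjusted p of 0.0342 and an adjusted p of 0.426, and DESeq2 an adjusted p of 0.0661. Over all tested genes 13.7% had no count in either Cre library. Of the 4520 tested genes with a Control mean between 10 and 50 CPM, where Slamf1, Sh2d1a, Bcl6 and Tnfsf8 stand, 17.5% were at 0 in Cre and 12.8% had both Cre values below all Control values.

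Slamf6, or Ly108, which marks follicular helper and progenitor-like T cells in mice, was counted 274, 378, 381, 737 and 531 times in Control and 609 and 98 times in Cre. Cre replicate 1 lay within the Control range and Cre replicate 2 below all of it. The log2 fold change was −0.52 ± 0.59 (SE; edgeR adjusted p = 0.796), and it turned to 0.23 without Cre replicate 2 and to −2.03 without Cre replicate 1. Ly9, a receptor found on most lymphocytes, was counted 723, 539, 341, 634 and 203 times in Control and 437 and 151 times in Cre. Its levels of 299 ± 127 CPM (Control) and 165 ± 86.5 CPM (Cre) overlapped, and Cre replicate 2 was again the lowest library. The Ly9 log2 fold change was −0.86 ± 0.58 (edgeR adjusted p = 0.551), −1.53 without Cre replicate 1 and −0.37 without Cre replicate 2.

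Cd48, the lipid-anchored ligand of CD2 and CD244, was counted 50, 320, 82, 90 and 36 times in Control, 1 time in Cre replicate 1 and 382 times in Cre replicate 2. The Cre libraries were thus the lowest and the highest of all 7. The log2 fold change of 0.82 ± 1.32 (edgeR adjusted p = 0.88) turned to −6.91 without Cre replicate 2, was 1.85 without Cre replicate 1 and turned to −2.14 with limma voom. Cd84, a receptor that binds itself and supports contact of T cells with B cells in mice, was counted 103, 112, 208, 80 and 71 times in Control and 110 and 98 times in Cre. Its Cre libraries lay close to each other and inside the Control range (Control 70.9 ± 34.3 CPM, Cre 57.0 and 67.6 CPM). Its log2 fold change was −0.18 ± 0.84 (adjusted p = 0.963) and turned to 0.17 without Control replicate 3. Summed over the 5 receptors, Control libraries held 522 to 963 CPM, Cre replicate 1 held 599.5 CPM and Cre replicate 2 held 503 CPM. Of these sums, Cd48 alone made up 263 CPM in Cre replicate 2, 0.518 CPM in Cre replicate 1 and 22.1 to 216 CPM in Control libraries.

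Sh2d1a, which encodes the adaptor SAP, was counted 25, 65, 0, 63 and 145 times in Control and 142 and 64 times in Cre. Both Cre libraries lay within the Control range, in which Control replicate 3 had no count. The log2 fold change was 0.72 ± 1.48 (edgeR adjusted p = 0.911), 1.32 without Control replicate 5 and 2.03 with limma voom. It was 0.11 when only the most counted region of each gene was used, because 75 of the counts in Cre replicate 1 came from another region.

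Bcl6 was counted 41, 60, 130, 24 and 4 times in Control and 6 and 1 times in Cre. The Control mean was 32.2 ± 30.1 CPM, and Cre replicate 1 (3.11 CPM) stood just above the lowest Control library (2.46 CPM) while Cre replicate 2 (0.690 CPM) stood under it. The log2 fold change was −3.99 ± 2.03 (edgeR adjusted p = 0.429, DESeq2 adjusted p = 0.0914). It was −5.38 without Cre replicate 1, −3.29 without Cre replicate 2 and −3.32 without Control replicate 3. Cxcr5 was counted 5, 0, 70, 4 and 1 times in Control and 1 and 0 times in Cre, and it did not pass the filter on low counts. Of its 81 counts, 70 came from Control replicate 3, the library in which Bcl6 was also highest. The ratio of Cre to Control was 0.0301 (95% exact counting interval 0.000754 to 0.173), and without Control replicate 3 it was 0.193 (0.00445 to 1.36), which includes equality. The same Control library had no count of Slamf1 or Sh2d1a and the fewest Control counts of Tnfsf8.

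Izumo1r was counted 206, 585, 543, 454 and 266 times in Control and 441 and 277 times in Cre. Both Cre libraries lay inside the Control range, with means of 255 ± 114 CPM (Control) and 209.8 ± 26.5 CPM (Cre) (log2 fold change −0.27 ± 0.51, edgeR adjusted p = 0.904). Its fitted value was lower in Cre in every alternative setting tried, from −0.41 to −0.06. In the main test the median over all tested genes was −0.39, and 60.1% of them had lower fitted values.

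Tnfsf8 was counted 46, 90, 8, 54 and 129 times in Control and 1 and 0 times in Cre. It was the one gene of the 10 whose Cre libraries both lay below every Control library, a position taken by 10.9% of all tested genes. None of the 10 had both Cre libraries above every Control library, as 4.05% of all tested genes did. The Tnfsf8 ratio of Cre to Control was 0.00737 (95% exact counting interval 0.000186 to 0.0414). edgeR gave a log2 fold change of −6.82 ± 2.23 (unadjusted p = 0.00991, adjusted p = 0.367). Without Cre replicate 2 it was −6.04, and without Cre replicate 1, which leaves a Cre library with no count, it was −9.01, a value that depends on the prior count. DESeq2 gave −7.01 (adjusted p = 0.00735), and the FDR in the authors' deposited table, also from DESeq2, was 0.0055. There, 3.64% of 18008 genes with an FDR were lower and 0.211% higher at the same threshold, and the other 9 genes described here had an FDR of 0.0667 or more in the authors' deposited table. The receptor of CD30 ligand, Tnfrsf8, was counted 1, 0, 0, 0 and 14 times in Control and not in Cre.

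**Figure D3:**
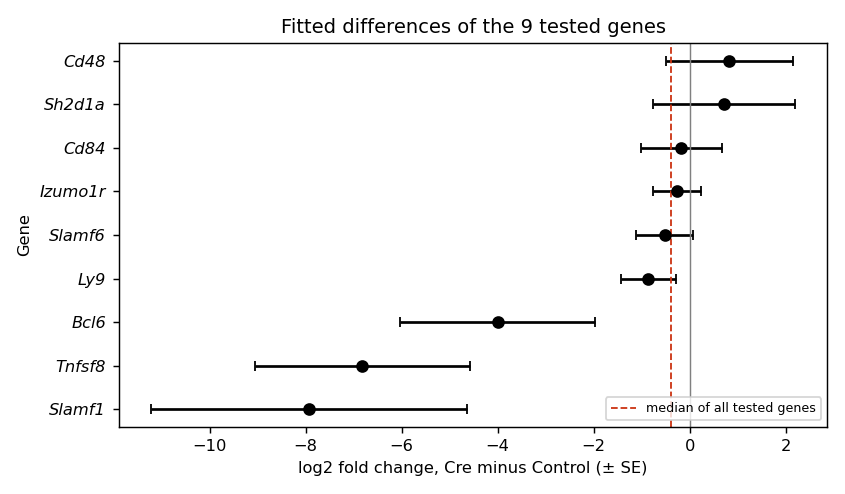
Log2 fold change, Cre minus Control, with its standard error from edgeR for the 9 tested genes, and the median of all 9854 tested genes as a dashed line. Slamf1, Tnfsf8 and Bcl6 stand at −7.93, −6.82 and −3.99 with standard errors of 3.29, 2.23 and 2.03, and the other 6 lie between −0.86 and 0.82. With no count in Cre, the value of Slamf1 depends on the fit's prior count.

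The counts of a gene did not always come from its annotated end. For Cd48, Bcl6, Cxcr5 and Tnfsf8 all counts came from 1 region, which ran through the 3′ UTR to 249 bases past the gene. For Ly9, 99.0% came from such a region at its end, which lies within Cd244a on the opposite strand. For Slamf6 86.9% came from the end region at 171948693 to 171953419 and 11.1% from a shorter 3′ UTR at 171942593 to 171944159. In Slamf1, 47 of 81 counts in Control replicate 2 came from a stretch of 249 bases annotated as intron, at 171795832 to 171796080, where no other library had a count. Cd84 used an internal 3′ UTR at 171852180 to 171855346 for 53 of 110 counts in Cre replicate 1 and 0 of 98 in Cre replicate 2, and Control libraries had 1 to 67 counts there.

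Sh2d1a, on chromosome X, had 84.3% of its counts in a region at 42521753 to 42522342, before the annotated end of the gene at 42529330, and 2 counts in the region at that end. Its region at 42523698 to 42523946, annotated as intron, had 75 counts in Cre replicate 1 and 0 to 2 in the other 6 libraries. Izumo1r, on the minus strand of chromosome 9, had 95.8% of its counts in a region at 14899774 to 14900355 and 16 counts in the region at its annotated end. Whether counting used the strand is not given in the sources used here. For Cxcr5 this matters, since its region overlaps a counted region of Bcl9l on the other strand by 608 bases, and its counts are uncertain. Bcl9l had 90 counts in that region in Control replicate 3 and 75 to 288 in the other 6 libraries.

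**Figure D4:**
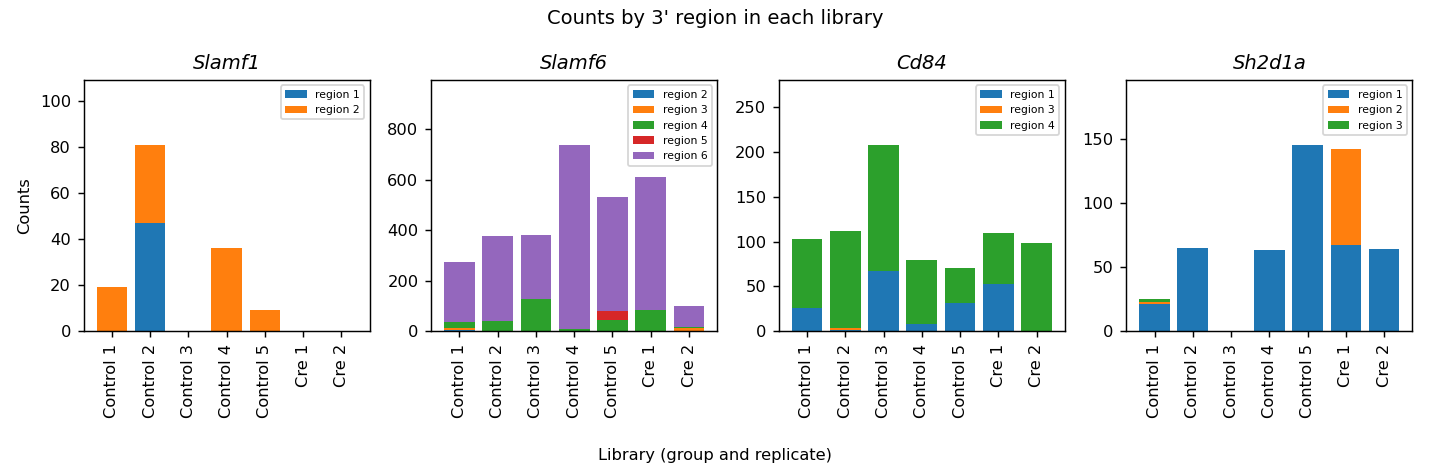
Counts of each 3′ region of Slamf1, Slamf6, Cd84 and Sh2d1a in each library, stacked, with regions numbered in genome order. Sh2d1a region 2 holds 75 counts in Cre replicate 1, and Slamf1 region 1 holds 47 counts in Control replicate 2.

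The genes around the SLAM receptors in their pathway did not pass edgeR either. The other receptors and SAP-like adaptors were nearly silent: 4 of 6 (Slamf8, Slamf9, Sh2d1b1 and Sh2d1b2) had no count in any library, and none of the 6 was tested. Of 14 genes that act behind the receptors, 0 passed edgeR, 2 had an unadjusted p under 0.05 (both lower, none higher), 10 had lower fitted values in Cre, and their median log2 fold change was −0.58. Of all tested genes 10.2% were lower and 1.41% higher at that p, and 60.1% had lower fitted values, so the counts of these 14 stand near the background. Fyn, the kinase that SAP brings in, stood at 154 ± 55.0 CPM (Control) and 189.6 ± 21.3 CPM (Cre) (edgeR adjusted p = 0.877). Bcl10, which links receptor signals to NF-kappaB, was counted 56, 193, 76, 59 and 45 times in Control and 0 and 2 times in Cre (edgeR adjusted p = 0.367, DESeq2 adjusted p = 0.00182). Malt1, its partner, also had both Cre libraries below every Control library (edgeR adjusted p = 0.407), a position taken by 10.9% of all tested genes. DESeq2 called 7.23% of 8394 genes lower. Dok1, an inhibitory docking protein, had Control and Cre means of 115 ± 71.7 and 34.1 ± 12.3 CPM, and Inpp5d, the lipid phosphatase SHIP-1, of 94.0 ± 30.0 and 159 ± 96.0 CPM, and for both the groups overlapped. Cd2, the receptor for CD48 on T cells in mice, had a Control mean of 175 ± 127 CPM and stood at 132 and 33.1 CPM in Cre (adjusted p = 0.596). Cxcl13, the ligand of Cxcr5, had no count in any library.

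Of 23 other follicular helper genes, 19 were tested and 0 passed edgeR, 1 having an unadjusted p under 0.05 (Tcf7, higher), with 9 fitted values higher and 10 lower in Cre and a median log2 fold change of −0.40. The shares over all tested genes were 1.41% higher and 10.2% lower at that p, and 39.9% higher and 60.1% lower by fitted value. Tcf7, a transcription factor that acts before Bcl6, had means of 419.9 ± 149.6 CPM (Control) and 749 ± 61.6 CPM (Cre), both Cre libraries standing highest, as for 4.05% of all tested genes (adjusted p = 0.427). Icos, the costimulatory receptor, and Tnfrsf4, or OX40, were lower in each Cre library than in any Control library, as were 10.9% of all tested genes, with edgeR adjusted p of 0.429 and 0.564. Cd40lg, the signal to B cells, was counted 59, 149, 126, 245 and 116 times in Control and 86 and 52 times in Cre (adjusted p = 0.665). Pdcd1, which encodes PD-1, Maf and Tox overlapped between groups, with Cre means of 85.1, 399.7 and 22.5 CPM and Control means of 75.7, 313 and 78.8 CPM. Il21, the cytokine of follicular helper cells, was counted 0, 1, 0, 0 and 15 times in Control and not in Cre, and Il4 and Ascl2 had no count in any library.

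Of 16 genes that oppose the follicular helper state, 0 passed edgeR, 2 had an unadjusted p under 0.05 (both lower, none higher), and 10 had lower fitted values in Cre (median −0.41), beside 10.2% and 60.1% of all tested genes. Prdm1, the repressor that counters Bcl6, was counted 133, 25, 585, 372 and 178 times in Control and 370 and 228 times in Cre (log2 fold change 0.18 ± 0.84, adjusted p = 0.963). Id2 and Il2ra, an inhibitor of E proteins and the alpha chain of the interleukin-2 receptor, were lower in each Cre library than in any Control library, where 10.9% of all tested genes stood (edgeR adjusted p = 0.422 and 0.429). Foxo1 and Il2rb overlapped between groups, with adjusted p of 0.427 and 0.429.

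**Figure D5:**
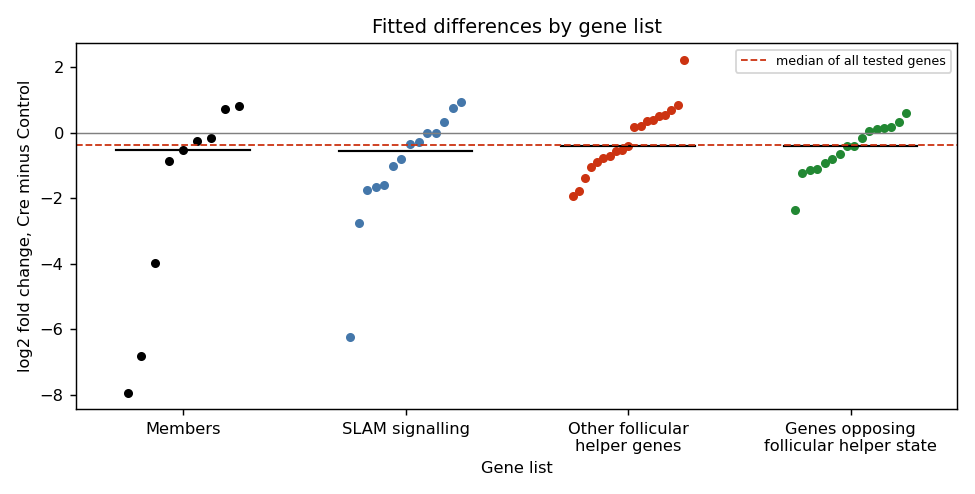
Log2 fold change, Cre minus Control, of each tested gene in 4 lists, the first (Members) being the 9 tested genes described here, with a line at the list's median and the median of all tested genes as a dashed line. The medians of −0.52, −0.58, −0.40 and −0.41 lie near the median of all genes at −0.39.

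Markers of other cells were counted beside these values, and their part in the results was not tested. Macrophages and dendritic cells also express Cd48 and Cd84, and activated macrophages Slamf1. Control libraries held 12.9 to 47.4 CPM of 8 macrophage and monocyte markers in sum, and the Cre libraries 1.04 and 4.83 CPM, so that the groups did not overlap. The Cre sums rest on few counts, C1qa having 2 in Cre replicate 1, and Cd68 6 and Itgam 1 in Cre replicate 2. Of these 8, Adgre1 and C1qc had no count in any library, and Lyz2 had 8 to 54 counts in Control and none in Cre. For Lyz2 the edgeR adjusted p was 0.422 and the DESeq2 adjusted p 0.0481. Over all tested genes 13.7% had no count in either Cre library. The sum of 6 dendritic cell markers reached 11.9 CPM in Control, 7.77 CPM in Cre replicate 1 and 0 in Cre replicate 2, with Flt3 and Clec9a at 0 throughout. The sum of 4 natural killer cell markers was 0 to 16.8 CPM in Control and 0 in Cre, with Ncr1 and Klra8 at 0 throughout, and that of Cd8a and Cd8b1 was 0 to 9.49 CPM in Control and 0 in Cre. The sum of 6 fibroblast markers was 159.6 to 575 CPM in Control, 276 CPM in Cre replicate 1 and 53.1 CPM in Cre replicate 2. Within it Col1a2 was counted 40 to 336 times in Control and 7 and 2 times in Cre (edgeR adjusted p = 0.323, DESeq2 adjusted p = 0.000334). Col1a1 was also lower in each Cre library than in any Control library (edgeR adjusted p = 0.473). Of all tested genes 10.9% stood so, and DESeq2 called 7.23% of 8394 genes lower. Dcn was counted 7 to 257 times in Control and 364 and 41 times in Cre. The sum of 4 regulatory T cell markers, of which Il2ra is also among the opposing genes, was 530.3 to 991 CPM in Control, 587 CPM in Cre replicate 1 and 541 CPM in Cre replicate 2.

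Ly9 had the highest mean Control CPM of the 10, and its pattern over the 7 libraries was set beside that of the other 9853 tested genes. The most alike, by root mean square difference of log2(CPM + 1) after centring each gene, were Dync1h1, Pigs and Erp29, with differences of 0.20, 0.27 and 0.31. The median over all genes was 1.67. That median is no reference for these genes, which were picked as the smallest of 9853 differences over 7 libraries. Whether they share regulation with Ly9 was not tested.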

How the data were processed

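Per the labels' protocols, RNA of sorted CD4 T cells went into 3′ UTR RNA-seq with NEB Next Ultra reagents. The authors deposited raw counts for 116000 regions; mm10, HISAT2 2.1.0, FastQC 0.11.8 and DESeq2 are named in the submitters' processing notes. The counting tool, its strand setting and the annotation are not stated there. The authors' deposited table holds DESeq2 p-values and FDR, a fold as a ratio, its log2 value and GC content in percent.

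Counts were summed per gene and groups taken from titles. The main test was edgeR 4.0.16 (R 4.3.3; quasi-likelihood, TMM, robust, filterByExpr with minimum count 10 and minimum total 15), two-sided, with Benjamini-Hochberg adjustment over 9854 genes and a threshold of 0.05. Standard errors came from the F statistic. The script was tested on simulated data. Alternatives were other scaling factors, other filters, DESeq2 1.42.0, limma 3.58.1 voom, each library left out, a replicate block and, chosen after seeing the data, the most counted region per gene. GENCODE M21, on the same build, placed regions and coding sequences.

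The members and lists were chosen with earlier results of these data known. All 10 members are named, with up to 4 genes of smallest p per list and Pdcd1, Icos, Il21, Cd40lg, Maf, Prdm1, Tcf7, Fyn, Cd2, Tnfrsf8 and Cd4, which stood at 299.6 ± 104 CPM (Control, n = 5) and 385 ± 8.72 CPM (Cre, n = 2); genes at 0 and marker genes named beside these were chosen after their values were seen. A marker gene is not reported here. Coordinates count from 1.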

Additional observations from a re-analysis of the deposited data

Results flagged for a closer look

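In 7 of the 32 genes and sums checked, 1 of the 5 Control libraries stood far from the other 4. Its gap to the next library was over 0.71 of the range. That limit is set for normally distributed values, so for sparse and skewed counts 7 of 32 cannot be set against a chance rate. Cd48 stood at 216 CPM in Control replicate 2 and at 22.1 to 52.2 CPM in the others. Cxcr5 stood at 43.0 CPM in Control replicate 3 and at 0 to 2.97 CPM in the others. In the same library Cd2 was high, at 399 CPM against 96.3 to 147 CPM, and Foxo1 was low, at 155 CPM against 345 to 393 CPM. Bcl10 stood at 129.997 CPM in Control replicate 2 and at 27.6 to 46.7 CPM in the others. Il21 and Tnfrsf8 stood at 9.22 and 8.60 CPM in Control replicate 5 and at no more than 0.674 and 0.593 CPM in the others.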

How the results depend on the processing

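Over the 9 tested genes, 126 of 132 values under alternative settings kept their direction and their side of the threshold, and 1, Tnfsf8 with DESeq2, passed it (log2 fold change −7.01). The direction turned in 5: Slamf6 without Cre replicate 2 (left-out range −2.03 to 0.23), Cd84 without Control replicate 3 (−0.31 to 0.17), and Cd48 without Cre replicate 2 (−6.91 to 1.85), with limma voom (−2.14) and with the replicate block (−2.29). The cause was not tested. Over all genes the count of higher and lower calls was 0 and 1 with edgeR, 15 and 28 without a filter, 35 and 607 with DESeq2 and 3 and 0 with limma voom. Leaving out 1 library gave 0 to 17 higher (17 without Cre replicate 1 and 1 without Cre replicate 2) and 1 to 202 lower (202 without Cre replicate 1). The replicate block gave 0 higher and 5 lower. The deviations of same-numbered libraries had an r across genes of 0.0039 and 0.0026. With 2 Cre libraries the deviations of one mirror those of the other, so this check cannot show whether the numbers pair libraries. The summed CPM of the 10 genes was lower in Cre by 200 to 379 CPM when a library was left out (−379.3 to −199.8, where all libraries gave −295.8). A left-out Cre library leaves 1 whose spread is taken from Control. The stricter filter removed Slamf1, Bcl6 and Tnfsf8, so it gave no value for them. At these totals a count of 0 in 1 library allows up to 1.55 to 2.07 CPM, so a level under that can go uncounted.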

Other observations

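Gm37065, a noncoding gene on the strand opposite to Slamf6 that overlaps its start, was singled out after its values were seen. It was counted 2, 1, 67, 68 and 0 times in Control and 1 and 0 times in Cre, so that 2 Control libraries held nearly all of its counts (log2 fold change −5.55 ± 3.16, edgeR unadjusted p = 0.104). Those libraries, Control replicates 3 and 4, had 381 and 737 counts of Slamf6. Tma7-ps, a processed pseudogene between Cd48 and Slamf1, was counted 22, 4, 64, 22 and 76 times in Control and 17 and 13 times in Cre, and its counts may include those of the gene it was copied from.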
